A study of Homo sapiens with 36 samples.

Results

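The 48 genes described here encode the subunits and regulators of the proteasome. They were the rows of the mRNA count table whose symbol consists of PSM, a letter from A to G and a number, out of 60591 rows, and the rule uses no measured value, although it was set with earlier results of these data known. By their known roles they were divided into 14 subunits of the core, 9 of the base and 8 of the lid, 3 immunoproteasome subunits, 2 core subunits restricted to other tissues, 7 assembly chaperones, and 5 genes for 4 activators and 1 inhibitor. The pseudogenes of these genes, 35 symbols in the table, were not members.

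The proteasome is the main protease for proteins tagged with ubiquitin in the cytosol and nucleus. Its barrel-shaped core is built of alpha rings (PSMA genes), which control entry, and beta rings (PSMB genes), of which PSMB5, PSMB6 and PSMB7 carry the cutting sites. A regulatory particle docks on the core, and its base (the PSMC ATPases with PSMD1, PSMD2 and PSMD4) unfolds the substrate while its lid (the other PSMD subunits listed here) removes ubiquitin. In cells exposed to interferon, PSMB8, PSMB9 and PSMB10 can take the places of PSMB5, PSMB6 and PSMB7 and form the immunoproteasome, which favours peptides suited for presentation on class I molecules. PSME1 and PSME2 form an activator that caps the core in place of the regulatory particle, PSME3 and PSME4 form others, and PSMF1 inhibits the core.

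The cells were 2 established human lines from colorectal tumours, Caco-2 and HT-29, and the study compared 2 agents that are used to imitate hypoxia by inhibiting the enzymes that mark hypoxia-inducible factor for breakdown. Each line received cobalt chloride (CoCl2) at 300 µM, an oxyquinoline derivative (OD) at 5 µM dissolved in dimethyl sulfoxide (DMSO), or 0.5 µl DMSO per ml of medium as the control, for 24 h. Differentiation over 21 days preceded treatment of Caco-2, and no such step is described for HT-29, so that line and culture state cannot be told apart. The mRNA of the 6 groups was sequenced in 18 libraries, with 3 replicates in each group. The labels give the CoCl2 stock as made in water, and name DMSO only for the control and OD. The methods of the study, which describe Caco-2 and not HT-29, add DMSO to the CoCl2 medium as well. They state it as 0.5%, where the labels give 0.5 µl per ml. The solvent of the CoCl2 groups is thus not settled, nor is the DMSO concentration. Each line is a single established line of tumour cells, and the same methods, written for Caco-2, call the replicates biological. The labels do not say whether they were separate cultures, and p-values measure the spread between these libraries.

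Total counts ran from 12925719 to 22332639 per library. All 8 epithelial markers had over 10 counts in every library. The 7 enterocyte markers were all lower in HT-29 control than in Caco-2 control, with a median fitted log2 difference of -4.40. Their summed counts were 53689 to 60546 per library in Caco-2 control and 2537 to 4306 in HT-29 control. Only 3 of the 7 had over 10 counts in every HT-29 control library, against 6 in Caco-2 control. Only 4 had enough counts to be tested within HT-29, so the size of the median is uncertain. Levels are given on 2 scales. CPM are counts set to a common library size with TMM factors (trimmed means of the log ratios between libraries) within a line, and allow one gene to be compared between groups, while RPKM, turned back from the authors' log2 values, is per length and allows genes to be compared. Scaling mattered here, since the mean TMM factor was 0.894 with CoCl2 and 1.12 in control for Caco-2, and 0.770 against 1.19 for HT-29. With library size alone, the log2 median of all genes moved in Caco-2 by -0.32 under CoCl2 and -0.15 under OD, and in HT-29 by -0.63 and -0.14, so that calls of small fold changes depend on the scaling. A gene is said to have risen or fallen when edgeR's quasi-likelihood test gave a Benjamini-Hochberg false discovery rate (FDR) under 0.05 over all genes tested.

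Short stretches of DNA near the start sites of the subunit genes are shown for all members with the pattern described here, because the core, base and lid genes moved together in the results that follow. The 9-base pattern TGACNNNGC is the core of the antioxidant response element, which NFE2L1 and NFE2L2 bind, and NFE2L1 is known for raising proteasome genes when proteasome activity is short. Promoter windows of RefSeq (GRCh38.p14, from 250 bases before to 50 bases after a start site) were found for 42 of the 48 genes, in 51 windows. The pattern occurred on either strand in 15 of the 51 windows, or 29.4%, and in 7 of the 32 windows of core, base and lid genes, or 21.9%, against 13.3% of all 35116 windows. The stretches below read from 5′ to 3′ on the strand that carries TGAC, with the 9 bases in capitals.
PSMA4 (chr15:78540650-78540678, plus strand): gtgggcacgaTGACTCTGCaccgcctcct
PSMB3 (chr17:38752627-38752655, plus strand): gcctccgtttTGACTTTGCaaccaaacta
PSMC4 (chr19:39971182-39971210, minus strand): tcctccatagTGACCAAGCcggcctctgt
PSMC5 (chr17:63827654-63827682, minus strand): agggcggcgcTGACACAGCagatccggtc
PSMD3 (chr17:39980760-39980788, plus strand): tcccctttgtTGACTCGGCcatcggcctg
PSMD12 (chr17:67366724-67366752, minus strand): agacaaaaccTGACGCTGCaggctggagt
PSME4 (chr2:53971009-53971037, plus strand): gctctgctggTGACGCTGCagccgccggg
PSMB9 (chr6:32854034-32854062, minus strand): ccgagacaagTGACGAGGCagccccgccc
PSMD5 (chr9:120843038-120843066, minus strand): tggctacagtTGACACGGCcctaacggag
PSMD9 (chr12:121888631-121888659, minus strand): gcgcctgtggTGACCCGGCaggagtagcg
PSMD9 (chr12:121888678-121888706, plus strand): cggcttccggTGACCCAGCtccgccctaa
PSME1 (chr14:24136098-24136126, plus strand): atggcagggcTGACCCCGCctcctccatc
PSME2 (chr14:24146767-24146795, minus strand): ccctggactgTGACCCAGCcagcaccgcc
PSMG1 (chr21:39183616-39183644, minus strand): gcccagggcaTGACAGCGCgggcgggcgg
PSMG2 (chr18:12658689-12658717, plus strand): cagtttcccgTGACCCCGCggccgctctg
PSMD1 had a match, and PSMD3 a further match, too close to the window's end to show with their flanks. The pattern was also found in 4 of the 7 windows of assembly chaperones, or 57.1%. Of these genes, PSMG1 fell and PSMG2 rose with CoCl2 in both lines, and in HT-29 PSMD5 fell and PSMD9 rose. The CCAAT box occurred in 46.9% of the core, base and lid windows against 34.6% of all windows, ACGTG, the core of the hypoxia response element, in 12.5% against 21.4%, and TTCNNNGAA, a pattern bound by STAT factors, in 15.6% against 7.66%. Some genes had several overlapping windows, and these shares are descriptions of letters in short windows.

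In the control libraries, the core, base and lid genes had class medians that lay close together per length. PSMA7, an alpha-ring subunit, was the highest of the members, at 122 ± 3.87 RPKM (SD, n = 3) in Caco-2 and 129 ± 9.61 in HT-29. The median per-length level was 29.3 RPKM for the core, 32.4 for the base and 23.9 for the lid of Caco-2. For HT-29 the medians were 31.9, 32.4 and 24.9. Immunoproteasome genes were far lower per length, with PSMB8 at 2.43 ± 0.248 and PSMB10 at 4.02 ± 0.584 RPKM in Caco-2, and at 4.48 ± 0.161 and 4.53 ± 0.465 in HT-29. A further annotated gene overlaps PSMB10 on the same strand, and how shared reads were counted was not stated, so its level is uncertain. PSMB9 was listed at 0 in the authors' Caco-2 values, and its counts are given with the other immunoproteasome genes.

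The 2 tissue-restricted subunits were not detected at this depth. PSMA8, of the testis, had 0 counts in all 18 libraries, which allows up to 3 counts in a library or between 0.134 and 0.232 CPM, and PSMB11, of the thymus, had 1 count in 1 library. These limits cover counting error only, since reads without molecular identifiers are not independent molecules. A filter on low counts left 45 members to test for Caco-2, without PSMB9, PSMA8 and PSMB11, and 46 for HT-29. In bulk RNA, fewer cells of a kind and less RNA per cell cannot be told apart.

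Between the untreated lines, 26 members were higher and 9 lower in HT-29 control than in Caco-2 control, beside 39.5% and 39.6% of all 17921 genes tested over both lines. PSMD12, a lid subunit, differed most, at 1.64 ± 0.09 on the log2 scale (SE, n = 3 per group) higher in HT-29, while PSMB5, the chymotrypsin-like cutting subunit, was lower by -0.95 ± 0.06. PSMB8 was higher in HT-29 by 0.95 ± 0.11, and PSMB10, at 0.27 ± 0.13 with FDR 0.065, did not pass the test. PSMB9 had too few counts in Caco-2 to pass the filter there and entered this fit only through HT-29, so that it is not compared between the lines, although the counts of members over both lines include it.

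CoCl2 raised the genes of the whole standard proteasome in both lines. In Caco-2, 34 members rose and 3 fell, beside 31.6% of all 16034 genes tested that rose and 33.1% that fell, and all 14 core, 9 base and 8 lid genes were among those that rose. Over 2-fold changes with FDR under 0.05 were found for 14 members, or 8 with library size alone, beside 23.4% of all genes. The median log2 fold change was 0.93 for the core, 0.95 for the base and 1.28 for the lid, against 0.92 over all tested members and -0.03 over all genes. In HT-29, 39 members rose and 6 fell, beside 40.7% and 42.2% of all 15812 genes tested, and 34 changed over 2-fold, beside 41.3%. All 31 core, base and lid genes rose more than 2-fold there, with medians of 2.06 for the core, 2.28 for the base and 2.33 for the lid, against 1.97 over the tested members and -0.03 over all genes. With library size alone in place of TMM, Caco-2 had 32 members that rose and 6 that fell, beside 2894 and 8017 of all 16034 genes. HT-29 had 34 and 10, beside 3302 and 10175 of all 15812 genes. All 31 core, base and lid genes still rose in HT-29, while 14 core, 8 of the 9 base and 8 lid genes rose in Caco-2.

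The share of a library's counts that fell in core, base and lid genes moved in the same direction. This share divides by library size and uses no TMM factor, so it carries the shift of all genes seen with library size alone. It was 0.337% ± 0.0061 (SD, n = 3) in Caco-2 control and 0.567% ± 0.0065 with CoCl2, with the lowest CoCl2 library at 0.563% and the highest control library at 0.343%. In HT-29 it was 0.386% ± 0.0146 in control and 1.22% ± 0.0082 with CoCl2. With OD the shares were 0.347% ± 0.011 in Caco-2 and 0.400% ± 0.0018 in HT-29, where the OD libraries, at 0.398% to 0.401%, lay within the control range of 0.378% to 0.403%.

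**Figure D1:**
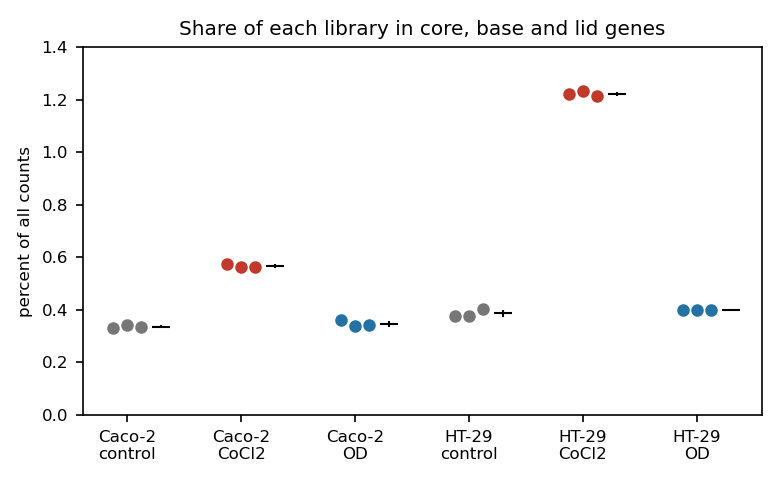
Percent of all counts in each library that fell in the 31 core, base and lid genes (y axis, from 0), by group (x axis), with each library as a point and the mean ± SD of the 3 libraries beside it. The CoCl2 groups stand at 0.567% and 1.22% and lie above every control and OD library of their line, whereas the OD groups average 0.347% and 0.400% against control means of 0.337% and 0.386%.

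Among single subunits, PSMC4, an ATPase of the base, had the highest CoCl2 fold change of the members in HT-29 and, after PSMA6, in Caco-2. Its level in Caco-2 was 90.7, 97.8 and 98.4 CPM in the control libraries, 335, 327 and 328 with CoCl2 and 141, 126 and 141 with OD. In HT-29 it was 103, 105 and 105 CPM in control, 964, 984 and 953 with CoCl2 and 114, 113 and 124 with OD. The groups did not overlap for either agent in either line. The log2 fold change with CoCl2 was 1.79 ± 0.07 in Caco-2 (FDR 3.4e-16) and 3.21 ± 0.05 in HT-29 (FDR 2.6e-27), and with OD it was 0.51 ± 0.07 and 0.17 ± 0.05. No base gene, PSMC4 included, passed the test as higher with OD in HT-29 when library size alone was used.

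PSMD14, the lid enzyme that cleaves ubiquitin chains off the substrate, had 59.6, 63 and 68.5 CPM in Caco-2 control, 169, 186 and 197 with CoCl2 and 57.2, 58.7 and 61.7 with OD. In HT-29 its levels were 94.5, 93.6 and 112 CPM in control, 665, 696 and 682 with CoCl2 and 111, 99.6 and 105 with OD. The CoCl2 libraries were far above the others, and the OD libraries overlapped control in both lines. The rise with CoCl2 was 1.53 ± 0.08 in Caco-2 and 2.76 ± 0.06 in HT-29. PSMD11, a lid subunit involved in assembly, stood at 138, 143 and 144 CPM in Caco-2 control and 385, 383 and 387 with CoCl2, and at 159, 153 and 163 in HT-29 control and 1108, 1131 and 1080 with CoCl2. With OD it stood at 209, 180 and 172 in the former line, and 204, 190 and 190 in the latter. It rose by 1.44 ± 0.08 and 2.80 ± 0.05. PSMD7, a lid scaffold, went from 89.9, 88.7 and 88.8 CPM in Caco-2 control to 208, 186 and 186 with CoCl2 and 150, 113 and 118 with OD, and in HT-29 from 68.2, 75 and 66.6 to 233, 250 and 252 with CoCl2 and 79.5, 80.6 and 76 with OD. It rose by 1.12 ± 0.09 and 1.81 ± 0.05 with CoCl2. Of the OD libraries in Caco-2, replicate 1 was the highest for PSMD7.

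Another alpha-ring gene, PSMA5, had 76.8, 85.5 and 82.2 CPM in Caco-2 control, 159, 156 and 168 with CoCl2 and 140, 112 and 104 with OD. In HT-29 the values were 121, 126 and 144 in control, 503, 512 and 489 with CoCl2 and 176, 175 and 179 with OD. The groups did not overlap, and PSMA5 had the highest OD fold change of the tested members in Caco-2, at 0.54 ± 0.09. PSMA6 showed the highest fold change of the core with CoCl2, at 1.85 ± 0.18 in Caco-2 and 3.04 ± 0.15 in HT-29, but from low counts. In Caco-2 it had 3.14, 2.88 and 3.95 CPM in control, 12.5, 11.9 and 11.5 with CoCl2 and 5.38, 4.14 and 3.53 with OD. The HT-29 libraries had 1.42, 1.97 and 1.95 CPM in control, 14.4, 15.3 and 15.2 with CoCl2 and 3.93, 2.73 and 4.42 with OD. The OD groups lay between control and CoCl2 in HT-29. GENCODE release 44, on GRCh38, is later than the annotation behind the counts, and places a further gene on the same strand over PSMA6, and likewise over PSMA1 and PSMA2, which were low too. A gene lies antisense to PSMC1, which was the lowest of the base. The use of strand in counting and the treatment of reads shared by overlapping genes were not stated, so the levels and folds of these 4 genes are uncertain. Over all members, 13 had a gene on the same strand overlapping them and 25 had one antisense. PSMB10 and PSMD9, also low per length, were among the 13, and the same uncertainty holds for them.

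**Figure D2:**
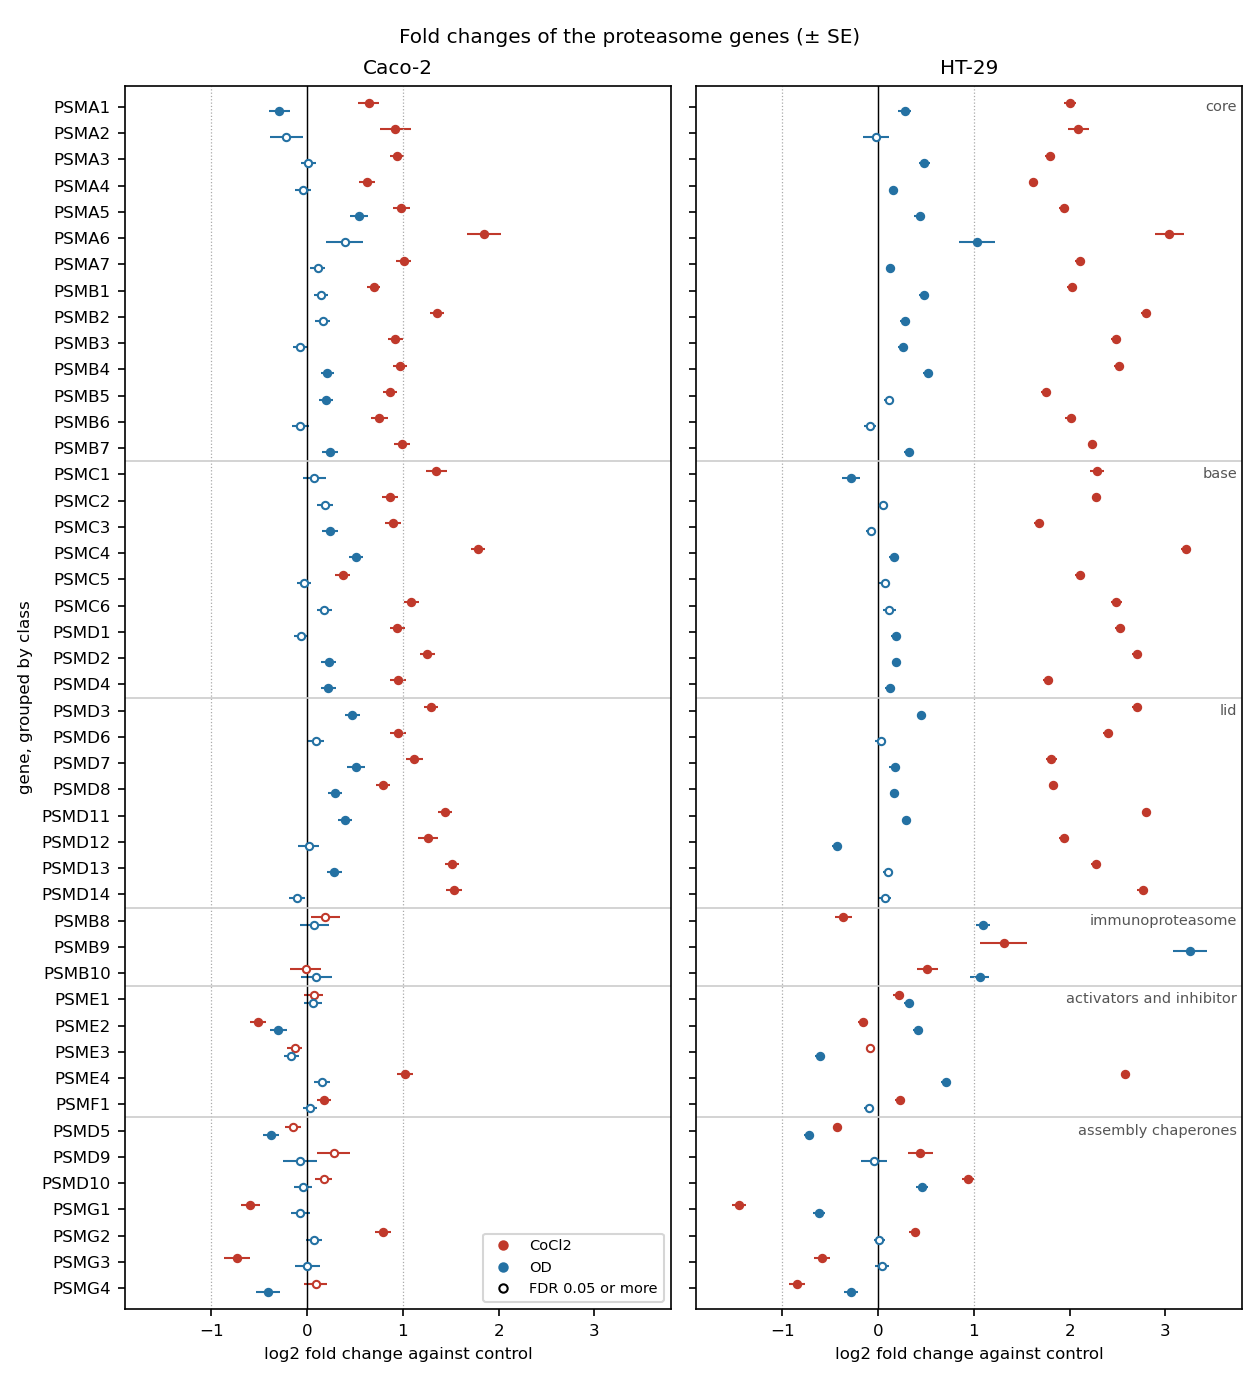
Log2 fold change against control ± SE for the tested members by class, in Caco-2 (left) and HT-29 (right), for CoCl2 (red) and OD (blue), with open points where the FDR was 0.05 or more. The red points of core, base and lid lie to the right of 0 in both lines, above 1.6 in HT-29, while for the immunoproteasome genes in HT-29 the blue points lie to the right of the red ones.

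CoCl2 changes across the 31 core, base and lid genes had a similar order in the 2 lines, with Pearson r = 0.72 and Spearman rho = 0.66 over 31 genes. This is a description over genes that share libraries, and no test was made. The 7 genes with TGACNNNGC had a CoCl2 median of 0.94 (Caco-2) and 2.48 (HT-29), and the 19 genes with windows but without it 0.98 and 2.28.

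The 3 catalytic subunits of the standard core rose with CoCl2 in both lines. PSMB5 had 152, 156 and 143 CPM in Caco-2 control, 289, 259 and 273 with CoCl2 and 173, 165 and 178 with OD, and 70.7, 71.8 and 76.5 in HT-29 control, 245, 245 and 247 with CoCl2 and 77.8, 81.1 and 78 with OD. Its CoCl2 change was 0.86 ± 0.07 in Caco-2 and 1.75 ± 0.05 in HT-29. PSMB6, the caspase-like subunit, had 35.6, 35.7 and 36.3 CPM in Caco-2 control, 67, 57.3 and 57.7 with CoCl2 and 34, 33.7 and 34.6 with OD, and 46, 42.7 and 51.3 in HT-29 control, 198, 184 and 185 with CoCl2 and 43.7, 44.2 and 45 with OD. PSMB6 rose by 0.76 ± 0.09 and 2.01 ± 0.06 with CoCl2, and the FDR with OD was 0.51 and 0.23. PSMB7, the trypsin-like subunit, went from 89.5, 96.1 and 96.7 CPM to 200, 179 and 182 with CoCl2 and 124, 102 and 107 with OD in Caco-2, and from 108, 108 and 114 to 529, 515 and 511 with CoCl2 and 139, 133 and 139 with OD in HT-29. Its CoCl2 change was 0.99 ± 0.08 and 2.24 ± 0.05. The OD changes of PSMB5 and PSMB7 in Caco-2, 0.19 ± 0.07 (FDR 0.030) and 0.24 ± 0.08 (FDR 0.019), lost their call with library size alone.

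The immunoproteasome genes followed another pattern, in which the larger rise in HT-29 came with OD, and no change passed the test in Caco-2. PSMB8 was at 9.26, 7.78 and 7.82 CPM in Caco-2 control, 10.7, 7.7 and 10 with CoCl2 and 9.62, 7.99 and 8.68 with OD, and these groups overlapped. In HT-29 it was at 14.7, 15.7 and 15.1 CPM in control, 11.7, 11.7 and 11.9 with CoCl2 and 29.8, 34.3 and 32.7 with OD, without overlap. The log2 fold change in HT-29 was 1.09 ± 0.07 with OD (FDR 4.4e-13) and -0.37 ± 0.09 with CoCl2 (FDR 0.00050).

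PSMB9 was near the limit of counting in Caco-2, with 11, 6 and 6 counts in the control libraries, 2, 6 and 6 with CoCl2 and 5, 4 and 7 with OD, and was not tested there. In HT-29 it had 0.968, 1.97 and 1.16 CPM in control (15, 36 and 31 counts), 2.54, 3.39 and 4.28 with CoCl2 and 12.2, 15 and 12 with OD. With OD it rose by 3.25 ± 0.18 on the log2 scale (FDR 8.5e-15), the highest fold change of a member with OD, and CoCl2 gave 1.31 ± 0.24. PSMB10 had 5.53, 7.38 and 6.3 CPM in Caco-2 control, 6.75, 5.59 and 6.6 with CoCl2 and 6.93, 6.61 and 6.91 with OD, all overlapping. In HT-29 it went from 6.33, 7.38 and 7.73 to 9.56, 9.96 and 11.5 with CoCl2 and 14.4, 15.5 and 15.3 with OD. The change was 1.06 ± 0.10 with OD, while that with CoCl2, 0.51 ± 0.11, became -0.12 with library size alone.

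PSMB8 and PSMB9 are neighbours on opposite strands, at chr6:32840717-32844679 and chr6:32844136-32859851 (GENCODE release 44), where their annotated extents overlap by 544 bases, and TAP1, a peptide transporter, overlaps PSMB9 on the opposite strand. TAP1 also rose with OD in HT-29, by 3.02 ± 0.10, from 147, 210 and 285 counts in control to 1599, 1615 and 1541. Without knowledge of strand use in counting, reads of PSMB9 and TAP1 that fall in the overlap cannot be told apart. The 250 bases before the RefSeq start site of PSMB9 are shown because this gene had the highest OD fold change, on the plus strand of GRCh38.p14, with the match to TGACNNNGC, which lies on the opposite strand, in capitals.
PSMB9 (chr6:32853942-32854191): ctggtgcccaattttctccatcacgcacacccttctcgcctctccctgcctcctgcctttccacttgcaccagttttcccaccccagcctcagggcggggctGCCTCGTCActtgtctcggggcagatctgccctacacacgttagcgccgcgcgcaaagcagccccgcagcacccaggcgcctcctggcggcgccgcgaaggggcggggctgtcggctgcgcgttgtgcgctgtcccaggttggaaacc

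**Figure D3:**
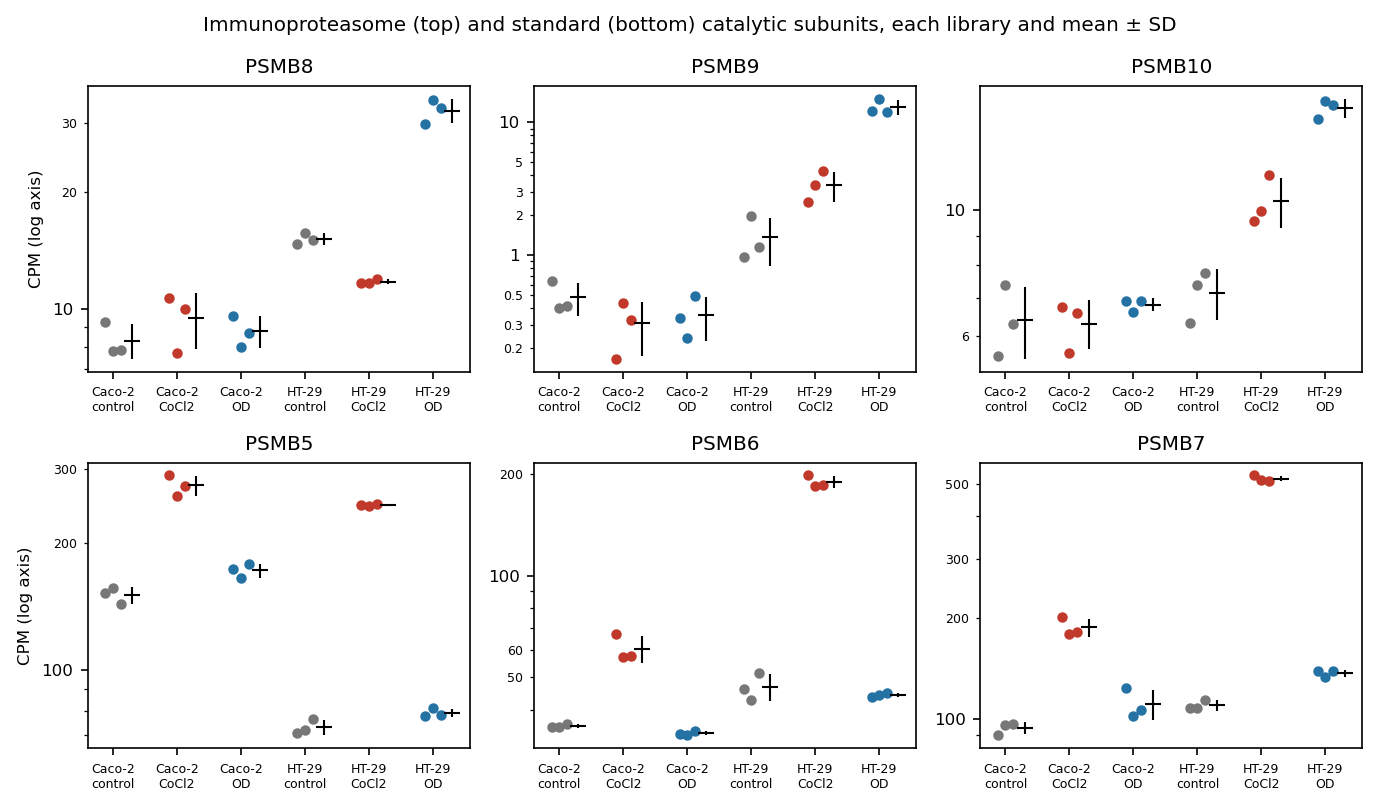
CPM on log axes for PSMB8, PSMB9 and PSMB10 (top) and PSMB5, PSMB6 and PSMB7 (bottom), by group, with each library as a point and the mean ± SD of the 3 libraries beside it. In HT-29 the OD libraries are the highest for the top row, and the CoCl2 libraries the highest for the bottom row, whereas in Caco-2 the top row shows overlapping groups.

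All 3 immunoproteasome genes rose with OD in HT-29, beside 34.7% of all genes tested that rose. Compared with OD, CoCl2 gave lower values for all 3 in HT-29, with differences of -1.46 ± 0.08 for PSMB8, -1.95 ± 0.16 for PSMB9 and -0.55 ± 0.10 for PSMB10. Of 13 other genes of antigen processing, all 13 rose with OD in HT-29, 10 of them over 2-fold. Of all genes, 17.1% changed over 2-fold there in either direction. NLRC5, an activator of class I genes, stood at 3.27 ± 0.15 and HLA-B, a class I molecule, at 1.92 ± 0.08. In Caco-2, 6 of these 13 rose with OD and 2 fell, beside 25.7% and 24.7% of all genes. With CoCl2, 11 rose and 1 fell in HT-29, beside 40.7% and 42.2%, and 7 rose and 3 fell in Caco-2, beside 31.6% and 33.1%.

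Leukocytes express immunoproteasome genes strongly, so their markers are given beside this result. The summed level of 10 leukocyte markers was 4.73 to 6.27 CPM of library size in HT-29 control and 26.1 to 27.5 with OD, and 3 of the 10 had over 10 counts in every OD library against 2 in control. ITGAM stood at 44 to 73 counts in control and 340 to 400 with OD, and CD79A at 0 to 2 and 23 to 54. PTPRC was at 0 in every OD library, as were MS4A1 and TYROBP, while CD3E reached 1 count and CD3D 3. LST1 stood at 0 to 1 counts in control and 3 to 8 with OD, and CD14 at 26 to 49 and 36 to 48. CD68 had 1 to 2 counts in control and 1 with OD. With CoCl2 the sum was 4.25 to 4.81 CPM. The part of these markers in the result was not tested.

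A ratio of 2 genes within a library does not depend on how libraries are scaled. The log2 ratio of PSMB8 to PSMB5 was -4.03, -4.32 and -4.19 in the Caco-2 control libraries and -4.75, -5.06 and -4.77 with CoCl2, so that it fell by 0.68 without overlap. In HT-29 it was -2.27, -2.19 and -2.34 in control, -4.39, -4.38 and -4.37 with CoCl2 and -1.38, -1.24 and -1.25 with OD. It thus fell by 2.11 with CoCl2 and was 0.98 higher with OD. The ratio of PSMB10 to PSMB7 fell by 1.01 in Caco-2 and by 1.70 in HT-29 with CoCl2, and was 0.76 higher with OD in HT-29. For PSMB9 to PSMB6 in HT-29, the mean went from -5.13 ± 0.61 (SD, n = 3) in control to -1.77 ± 0.19 with OD, a 10.28-fold higher ratio, and to -5.81 ± 0.42 with CoCl2, which overlapped control. The differences without overlap had an exact permutation p (both sides) of 0.10, the smallest that 3 against 3 libraries can give, so that no ratio could pass 0.05. In Caco-2 the PSMB9 ratio fell by 1.39 with CoCl2 without overlap, from 2 to 11 counts of PSMB9, and with OD all 3 ratios overlapped control.

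**Figure D4:**
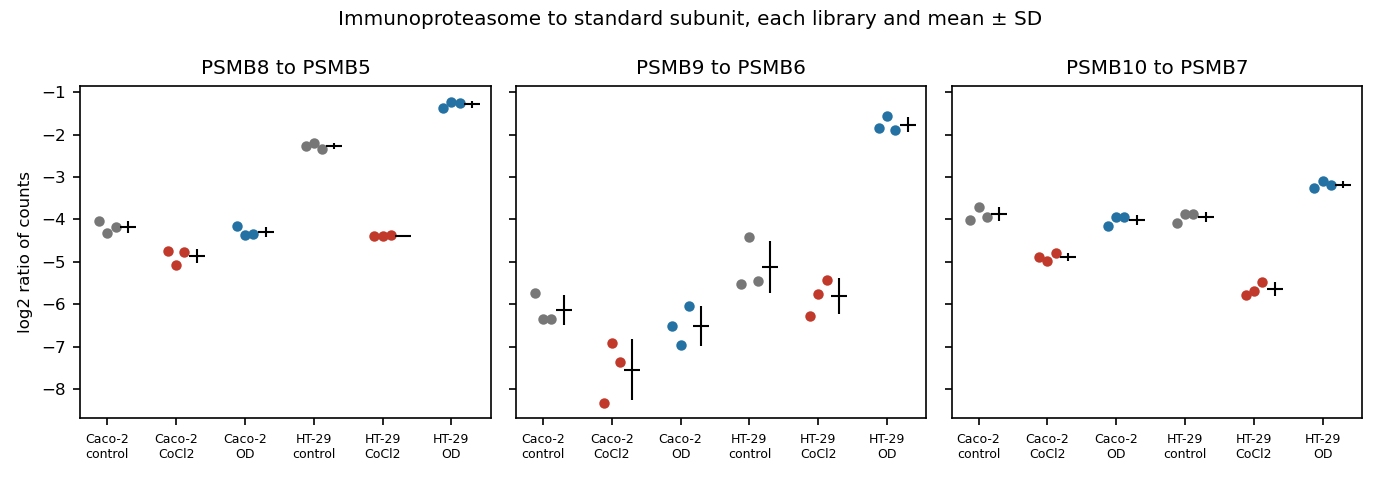
Log2 ratio of counts (0.5 added to each) of each immunoproteasome gene to the standard subunit whose place it takes, by group, with each library as a point and the mean ± SD beside it. In HT-29 every OD library lies above control for the 3 ratios, and the PSMB8 and PSMB10 ratios lie below control with CoCl2 in both lines.

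With OD, the core, base and lid genes had small fold changes in both lines. In Caco-2, 13 members rose and 4 fell, beside 25.7% and 24.7% of all genes, and 0 changed over 2-fold, beside 11.7%. Fold changes over the tested members ran from -0.41 to 0.54, so that an unadjusted p gives 0 as well, and DESeq2 and limma also gave 0. The median log2 fold change was 0.13 for the core, 0.19 for the base and 0.29 for the lid. With library size alone, 5 members rose and 10 fell, beside 2729 and 5656 of all 16034 genes. The median over the members went from 0.08 to -0.08, and that over all genes from -0.02 to -0.18. In HT-29, 26 members rose and 6 fell, beside 34.7% and 34.0% of all genes, and 4 changed over 2-fold, beside 17.1%. Only 1 member did so with library size alone, and likewise with limma on log2(RPKM + 1). The 4 were the immunoproteasome genes and PSMA6, and the medians of core, base and lid were 0.28, 0.12 and 0.13. With library size alone, 17 members rose and 9 fell in HT-29, beside 4326 and 6766 of all 15812 genes.

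CoCl2 was above OD for the same subunits. In Caco-2, 35 members were higher with CoCl2 than with OD and 3 lower, beside 24.4% and 25.2% of all genes. In HT-29, 38 were higher and 7 lower, beside 37.1% and 40.6%. With library size alone, 11 were lower in HT-29, beside 9939 of all 15812 genes. All core, base and lid genes were higher with CoCl2 in both lines, with class medians of 0.86, 0.91 and 0.95 for Caco-2, against 1.95, 2.34 and 2.31 for HT-29. These comparisons share their CoCl2 and OD libraries with those against control.

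Of the activators, PSME4, which binds the core and stimulates breakdown of some proteins without ubiquitin, also rose with CoCl2 in both lines. It had 123, 116 and 119 CPM in Caco-2 control, 206, 252 and 267 with CoCl2 and 132, 141 and 125 with OD, and 142, 131 and 145 in HT-29 control, 804, 872 and 827 with CoCl2 and 239, 222 and 222 with OD. For CoCl2 its change was 1.02 ± 0.09 (Caco-2) and 2.58 ± 0.05 (HT-29), and for OD 0.15 ± 0.09 (FDR 0.14) and 0.71 ± 0.05.

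PSME1 and PSME2, the partners of the interferon-inducible activator, changed in opposite directions with CoCl2 in HT-29, which library size alone turned into lower values for both, and rose with OD there. PSME1 had 82.7, 88.3 and 89 CPM in Caco-2 control, 96.1, 81.8 and 94.2 with CoCl2 and 106, 86.9 and 77.7 with OD, and 82.7, 85.6 and 92.4 in HT-29 control, 94.1, 103 and 106 with CoCl2 and 111, 109 and 108 with OD. Its HT-29 changes were 0.21 ± 0.05 with CoCl2 and 0.33 ± 0.05 with OD, and the CoCl2 values became -0.26 in Caco-2 and -0.42 in HT-29 with library size alone. PSME2 had 66.5, 69.9 and 68.7 CPM in Caco-2 control, 48.9, 48.5 and 46.3 with CoCl2 and 63.6, 50.9 and 52.1 with OD, and 74.9, 78.6 and 73.7 in HT-29 control, 65.3, 70.5 and 67.7 with CoCl2 and 96.3, 105 and 102 with OD. PSME2 fell with CoCl2 by 0.51 in Caco-2 and by 0.16 in HT-29, and rose with OD in HT-29 by 0.42 ± 0.05. The fall with OD in Caco-2, -0.30 ± 0.09 (FDR 0.0057), lost its call without replicate 2 (FDR 0.16) or replicate 3 (FDR 0.091). The other PSME2 calls of this paragraph kept their side of the threshold with a replicate block.

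PSME3, the nuclear activator, had 110, 107 and 111 CPM in Caco-2 control, 95.7, 102 and 101 with CoCl2 and 109, 90.4 and 92.2 with OD. In HT-29 it had 142, 138 and 141 CPM in control, 131, 139 and 129 with CoCl2 and 92.6, 90.5 and 93 with OD, and fell with OD by 0.61 there. The inhibitor PSMF1 had small fold changes, with 86, 94 and 93.8 CPM in Caco-2 control, 108, 102 and 99.6 with CoCl2 and 93.4, 89.3 and 96.7 with OD, and 89.3, 81.6 and 80.4 in HT-29 control, 96, 101 and 95.6 with CoCl2 and 79, 77.5 and 77.5 with OD. Its call with CoCl2 in Caco-2, 0.17 ± 0.07 with FDR 0.047, was lost without any 1 of the replicates and was -0.15 with library size alone, and the HT-29 call, 0.22 ± 0.05, became -0.41.

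**Figure D5:**
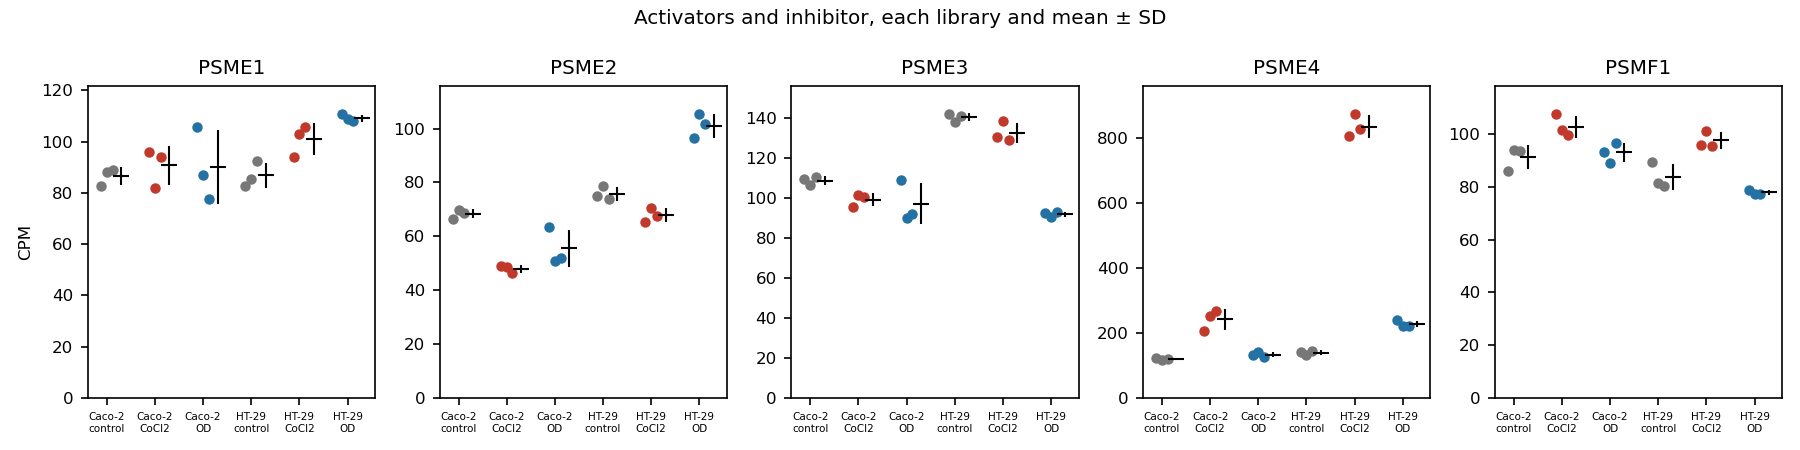
CPM of the 4 activators PSME1 to PSME4 and of the inhibitor PSMF1 (y axes from 0, each gene on its own scale), by group, with each library as a point and the mean ± SD beside it. PSME4 stands between 804 and 872 CPM in the HT-29 CoCl2 libraries, well above the other groups, while PSME2 in HT-29 is highest with OD.

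Of the 7 assembly chaperones, 1 rose and 2 fell with CoCl2 in Caco-2, beside 31.6% and 33.1% of all genes. In HT-29, 3 rose and 4 fell, shares near the 40.7% and 42.2% of all genes, with a median of -0.43. PSMG1, which starts assembly of the alpha ring together with PSMG2, had the lowest fold change in HT-29, and PSMG3 had the lowest in Caco-2. PSMG1 had 35.7, 36.2 and 40.6 CPM in Caco-2 control, 21.9, 24.2 and 27.8 with CoCl2 and 35.6, 36.2 and 35.2 with OD, and 35.3, 36.1 and 37.4 in HT-29 control, 12.5, 13.2 and 14.1 with CoCl2 and 24.4, 23 and 23.5 with OD. For CoCl2 the log2 change was -0.60 ± 0.10 (Caco-2) and -1.46 ± 0.07 (HT-29), while OD gave -0.62 ± 0.06 in the latter.

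Another core chaperone, PSMG3, had 18.2, 18.1 and 15.3 CPM in Caco-2 control, 13, 9.01 and 9.36 with CoCl2 and 17.4, 16.5 and 17.9 with OD, and 27.2, 30.4 and 28.3 in HT-29 control, 20.8, 16.4 and 20.2 with CoCl2 and 28.5, 29.4 and 30.2 with OD. It fell by 0.73 and 0.59 with CoCl2. PSMG4 had 19.8, 16.9 and 15.4 CPM in Caco-2 control, 17.2, 18.8 and 19.3 with CoCl2 and 11.7, 12.9 and 14.9 with OD, and 25.2, 22.1 and 24.2 in HT-29 control, 13.5, 12.6 and 13.7 with CoCl2 and 20.2, 19.4 and 19.2 with OD. It fell with CoCl2 in HT-29 by 0.85. PSMD5, a chaperone of the base, had 69.7, 70.4 and 76.3 CPM in Caco-2 control, 57.9, 69.9 and 67 with CoCl2 and 52.1, 57.2 and 57.4 with OD, and 102, 97.6 and 102 in HT-29 control, 75.1, 74.8 and 73.9 with CoCl2 and 60.8, 62.9 and 58.8 with OD. It fell with OD in both lines, by 0.37 and 0.72, and with CoCl2 in HT-29 by 0.43. PSMG2 rose with CoCl2 by 0.79 ± 0.09 in Caco-2 and 0.38 ± 0.06 in HT-29. The HT-29 change was smaller in size than the shift of -0.63 by which all genes moved with library size alone. PSMD10 rose in HT-29 by 0.94 ± 0.06. With library size alone, 1 chaperone rose and 5 fell with CoCl2 in HT-29, where 3302 of all 15812 genes rose and 10175 fell.

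The response to CoCl2 was larger in HT-29 for most members. The interaction test over 18 libraries, HT-29 treated minus control less the same in Caco-2, was higher for 35 and lower for 5 members, beside 21.1% and 28.6% of all genes, and was higher for all 31 core, base and lid genes. The median over the members was 0.91, against -0.13 over all genes. PSMC5, a base ATPase, had the largest difference among these subunits, at 1.63 ± 0.09. For OD the interaction was higher for 12 and lower for 8, beside 20.9% and 22.0%, with a median of 0.01, and it was 1.00 ± 0.16 for PSMB8 and 0.95 ± 0.18 for PSMB10. No difference between the lines is drawn for PSMB9, although the counts of 35 and 12 members include it. PSMB9 had 2 to 11 counts per library in Caco-2 and passed the joint filter only through HT-29.

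Genes that work beside the proteasome were listed by role, and they were not refitted with library size alone. The shares of all genes that rose and fell under CoCl2 were 31.6% and 33.1% (Caco-2) and 40.7% and 42.2% (HT-29). Under OD they were 25.7% and 24.7% (Caco-2) and 34.7% and 34.0% (HT-29). Of 12 proteins that bind the proteasome, 9 rose and 0 fell with CoCl2 in Caco-2, and 10 rose and 1 fell in HT-29, with POMP, the maturation factor of the core, at 0.85 ± 0.09 and 1.96 ± 0.06 and SEM1, a small lid subunit, at 1.09 ± 0.11 and 2.12 ± 0.06. ZFAND2A, a stress-induced partner of the particle, had the highest values, 2.91 ± 0.09 and 3.76 ± 0.07. Of 9 ubiquitin shuttles and parts of the VCP segregase, 7 and 8 rose with CoCl2, with VCP at 1.43 ± 0.07 and 3.15 ± 0.05, UFD1 at 2.43 ± 0.08 and 3.91 ± 0.05 and SQSTM1 at 2.40 ± 0.08 and 4.92 ± 0.05. With OD, 6 of the 12 binding proteins rose and 1 fell in Caco-2, and 6 rose and 4 fell in HT-29, the latter near the share of all genes that fell. Of the 9 shuttles and segregase parts, 6 rose and 0 fell with OD in Caco-2. In HT-29, 7 of them rose with OD, 2 of these over 2-fold, and 0 fell. The 2 stand beside 17.1% of all genes that changed over 2-fold in either direction. With CoCl2, 1 of the 9 fell in Caco-2 and 0 in HT-29.

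Among 5 genes that control transcription of the proteasome, 4 rose and 1 fell with CoCl2 in each line. With OD, 4 of the 5 rose and 0 fell in Caco-2, beside 25.7% and 24.7% of all genes. In HT-29, 2 rose and 3 fell with OD, with a median of -0.27, beside 34.7% and 34.0%. NFE2L1, the factor that drives proteasome genes, rose with both agents. In Caco-2 its change was 1.08 ± 0.07 under CoCl2 and 1.17 ± 0.07 under OD, and HT-29 gave 0.99 ± 0.04 and 1.12 ± 0.04. NFE2L1 is activated by processing of the protein, which mRNA counts do not measure. NGLY1, an enzyme of that processing, rose by 1.05 ± 0.10 and 1.06 ± 0.07 with CoCl2, and DDI2, the protease of that step, fell by 0.71 and 0.61.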

How the data were processed

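The mRNA of 18 libraries was analysed, and the 18 miRNA libraries were not used. The mRNA table deposited by the authors holds raw counts of reads for each gene. The other table deposited by the authors holds log2 values normalized to length and library size, and recomputation from the counts gave log2(RPKM + 1). Libraries were stranded, with single-end reads of 75 bases. Per the labels, the submitters' processing notes name FastQC 0.11.9, cutadapt 2.10, STAR 2.7.5b, Bowtie 1.1.1, edgeR 3.30.3 and GRCh38.p13. The annotation was a GENCODE release, and the counting tool and its use of strand are not given in the sources used here. No per-sample column was left without a sample.

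Counts were tested in edgeR 4.0.16 (R 4.3.3) with TMM, filterByExpr and the quasi-likelihood F test, two-sided, over the 9 libraries of a line, with Benjamini-Hochberg adjustment over all genes tested. Interactions and the comparison of controls used all 18 libraries. A rule of over 2-fold was counted too, as in the study. SE was the absolute log2 fold change divided by the root of F. The fit was tested on simulated data. Genes given in every library were the standard catalytic and immunoproteasome subunits, PSME1 to PSME4, PSMF1, and, in each treatment comparison, the 3 highest and 3 lowest members by fold change with a mean of at least 100 counts. Up to 4 genes a list were named, the first of the list or the largest changes. Other genes came from fixed lists. The result of 1 list is not reported here. Members, lists and classes were chosen with earlier results of these data known. Alternatives were DESeq2 1.42.0, other scalings and filters, limma 3.58.1 on the log2 values, a replicate block and leaving out each replicate.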

Additional observations from a re-analysis of the deposited data

Results flagged for a closer look

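The results here were singled out because the response to an agent differed between the 2 lines in the interaction test over 18 libraries, which is HT-29 treated minus control less the same in Caco-2. For CoCl2, 35 of the 46 members tested had a higher and 5 a lower response in HT-29, beside 21.1% and 28.6% of all genes. Single members are given where this test passed and the fitted changes had opposite signs in the lines, with at least 1 of them past the test, together with the immunoproteasome genes. PSMG4 differed by -1.04, PSMB8 by -0.66 and PSMB9 by 1.83 on the log2 scale. For OD, 12 of the 46 members had a higher and 8 a lower response in HT-29. These counts were near the shares of all genes, 20.9% and 22.0%. The differences were 3.72 for PSMB9, 1.00 for PSMB8, 0.95 for PSMB10, 0.70 for PSME2, 0.55 for PSMA1, 0.48 for PSMD10, 0.31 for PSMB3 and 0.23 for PSMD1. They were -0.47 for PSMD12, -0.38 for PSMC1 and -0.34 for PSMC3. PSMB9, which the counts of 35 and 12 members include, had 2 to 11 counts per library in Caco-2 and passed the joint filter only through HT-29. Its values here are thus fitted values and not a test of a difference. The CoCl2 value also lost its call without replicate 1 (FDR 0.12) or replicate 3 (FDR 0.082). Cell line and the 21-day culture of Caco-2 cannot be told apart in these differences.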

How the results depend on the processing

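Library size alone in place of TMM changed most. With it, in Caco-2 with CoCl2, 6 members fell, 8 changed over 2-fold and the median was 0.60. With OD in Caco-2, 5 rose, 10 fell and the median was -0.0807. In HT-29 with CoCl2, 10 fell and the median was 1.34, and with OD, 17 rose, 1 changed over 2-fold and the median was 0.0245. For CoCl2 against OD in HT-29, 11 were lower, beside 9939 of all 15812 genes. Under this scaling, of all 16034 genes in Caco-2, 8017 fell with CoCl2, and 2729 rose and 5656 fell with OD. Of all 15812 genes in HT-29, 10175 fell with CoCl2 and 4326 rose with OD. PSME1 turned to -0.26 and PSMF1 to -0.15 with CoCl2 in Caco-2, and PSMB10 to -0.12, PSME1 to -0.42 and PSMF1 to -0.41 in HT-29, and PSMF1 to -0.17 for CoCl2 against OD in HT-29.

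The median with CoCl2 in Caco-2 was 0.89 under the stricter filter, 0.82 with limma on log2(RPKM + 1) and 0.86 on log2(RPKM + 0.1). In HT-29 it was 1.92 with no filter, 1.92 under the stricter filter, 1.86 in a fit over 18 libraries, 1.76 and 1.88 with limma. With limma on log2(RPKM + 1), 1 member changed over 2-fold with OD in HT-29. Leaving out 1 replicate gave medians of 0.88 to 0.94 and 1.91 to 2.04 with CoCl2 in Caco-2 and HT-29, and 0.11 to 0.17 with OD in HT-29, 2 to 3 members lower with OD in Caco-2, and -1.81 to -0.79 for the log2 ratio of PSMB9 to PSMB6, CoCl2 against control in Caco-2, and -1.08 to -0.86 for the log2 ratio of PSMB10 to PSMB7, CoCl2 against control in Caco-2. The cause was not tested.

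Between same-numbered libraries, 1 of 9 correlations of their deviations in Caco-2 and 3 of 9 in HT-29 were over 0.1. The highest were 0.103 and 0.193. Libraries of unlike number were not compared in this way, so the check cannot settle whether the replicates were paired. With a replicate block, 33 members rose and 3 fell with CoCl2 in Caco-2, and the calls of PSMF1 with CoCl2 in Caco-2 (FDR 0.070) and of PSME2 for CoCl2 against OD in Caco-2 (FDR 0.065), for the line difference in the CoCl2 response (FDR 0.050) and for HT-29 control against Caco-2 control (FDR 0.11) were lost. At this depth a change in PSMB9 in Caco-2 could not be tested.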
